A study of Mus musculus with 35 samples.

Results

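The genes described here are 10 receptors and receptor partners through which macrophages and other liver cells sense microbes and damaged tissue: the Toll-like receptor genes Tlr1, Tlr2 and Tlr4, their partners Cd14, Ly96, Lbp and Myd88, and the C-type lectin receptor genes Clec4d, Clec4e and Clec7a. They were taken by symbol from the platform annotation, with 1 probe set a gene, the one with the highest mean signal among those mapped to that gene alone. They are 10 of 18193 genes with such a probe set, and all 10 were among the 12669 genes tested.

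The measurements are array signals of total liver RNA (left lateral lobe) of 35 BALB/c mice, 1 array a mouse, 6 h after 1 intravenous injection. The 7 groups of 5 mice were control mice given deionized water, mice given the silica particle SP70 at 10, 20 or 40 mg/kg, mice given SP30 at 10 mg/kg, and mice given SP300 at 10 or 200 mg/kg. SP30 is the smallest and SP300 the largest of these particles. One experiment addressed the dose of SP70, and the other addressed particle size, both at 10 mg/kg and at the doses called toxic in the study (10 mg/kg of SP30, 40 mg/kg of SP70 and 200 mg/kg of SP300). The labels used here give no age or sex of the mice. A signal is a linear intensity per probe set. It has no unit of molecules, so levels are compared between mice and not between genes. Array medians lay between 149 and 180, and the number of arrays, 5 a group, limits the precision.

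Toll-like receptors are membrane proteins that bind microbial molecules and signal through the adaptor MyD88 to NF-kB, which switches on inflammatory genes. For bacterial lipopolysaccharide, the plasma protein LBP passes the ligand to CD14, and CD14 passes it to MD-2, the product of Ly96, which sits on TLR4. TLR2 pairs with TLR1 to bind bacterial lipopeptides. The C-type lectin receptors MCL (Clec4d), Mincle (Clec4e) and Dectin-1 (Clec7a) bind glycolipids or glucans and signal through the kinase Syk and the adaptor CARD9, and Mincle also binds a nuclear protein released from dead cells. In the liver, Kupffer cells, incoming monocytes and neutrophils carry most of these receptors, while hepatocytes make LBP as an acute-phase protein.

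RefSeq start-site sequences (GRCm38.p6) were at hand for 6 of the 10 genes: Tlr1, Tlr2, Myd88, Clec4d, Clec4e and Clec7a. The 250 bases before the start are shown for Tlr2, Clec4d and Clec4e, whose signals rose most among these 6. They are also shown for Clec7a, which, like Tlr2, was lower at 20 and 40 than at 10 mg/kg of SP70. Each runs 5′ to 3′ on the strand of the gene, and capitals mark matches to the NF-kB consensus or the C/EBP motif.
Tlr2, minus strand, chr3:83841609-83841858: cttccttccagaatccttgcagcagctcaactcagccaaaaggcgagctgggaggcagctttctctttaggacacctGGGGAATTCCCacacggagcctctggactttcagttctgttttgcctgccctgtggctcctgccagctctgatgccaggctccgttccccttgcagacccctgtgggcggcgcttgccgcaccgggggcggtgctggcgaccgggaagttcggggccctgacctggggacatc
Clec4d, plus strand, chr6:123261857-123262106: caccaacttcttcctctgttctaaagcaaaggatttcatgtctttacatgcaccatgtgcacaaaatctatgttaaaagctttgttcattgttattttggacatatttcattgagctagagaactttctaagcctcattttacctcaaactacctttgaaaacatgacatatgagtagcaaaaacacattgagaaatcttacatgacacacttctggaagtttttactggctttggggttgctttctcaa
Clec4e, minus strand, chr6:123289872-123290121: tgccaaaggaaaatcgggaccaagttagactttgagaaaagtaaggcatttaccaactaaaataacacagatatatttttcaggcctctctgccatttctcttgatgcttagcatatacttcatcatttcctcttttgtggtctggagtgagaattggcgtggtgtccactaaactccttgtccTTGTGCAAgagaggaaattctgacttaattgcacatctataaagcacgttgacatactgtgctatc
Clec7a, minus strand, the first of 2 listed starts, chr6:129472780-129473029: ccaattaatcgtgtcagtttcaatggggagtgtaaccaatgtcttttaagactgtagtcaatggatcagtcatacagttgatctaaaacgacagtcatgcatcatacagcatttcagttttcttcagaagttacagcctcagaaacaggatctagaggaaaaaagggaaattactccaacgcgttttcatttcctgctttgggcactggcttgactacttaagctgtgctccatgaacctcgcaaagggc

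Letters matching 5 motifs were searched on both strands of these windows. The Tlr2 window held the NF-kB consensus in 2 overlapping frames, from 173 to 163 bases before the start, and 7.25% of 32851 windows of this length held that consensus. The other 5 genes' windows did not hold it. The Clec4e window held the C/EBP motif (TTGCNNAA, read on the other strand) from 66 to 59 bases before the start, and 9.56% of windows held one. A core of the PU.1 motif (GAGGAA), found in 23.3% of windows, was present in those of Clec4d, Clec4e and Clec7a and in that of 1 of the 2 starts of Tlr1. The STAT motif (TTCNNNGAA, in 7.02% of windows) was present in the window of Myd88 and in that of the other start of Tlr1. The AP-1 motif (TGANTCA, in 6.75% of windows) was in none of the windows of these 6 genes. A match of letters is a description of the sequence and says nothing of binding.

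Against control, most of the 10 genes were higher in every particle group except SP300 at 10 mg/kg, and none was called lower. Differences are given as log2 of the signal plus a pseudocount of 12.5, which understates the change of genes with low signals, with the standard error (SE) of the limma fit. A gene was called when its Benjamini-Hochberg adjusted p over all genes tested was under 0.05. After SP70 at 10 mg/kg, 9 of 10 were higher, where 12.5% of all genes tested were higher and 5.70% lower. After SP70 at 20 mg/kg 8 were higher against a background of 18.8% (20.9% lower), and after SP70 at 40 mg/kg 7 were higher against 15.6% (28.8% lower). After SP30 at 10 mg/kg 9 were higher against 18.1% (31.3% lower), and after SP300 at 200 mg/kg 7 were higher against 12.6% (18.0% lower). After SP300 at 10 mg/kg 1 gene, Lbp, was higher, against 0.924% (0.245% lower). The median log2 difference of the 10 genes was 1.71, 1.43 and 1.44 after SP70 at 10, 20 and 40 mg/kg, 1.89 after SP30, 0.13 after SP300 at 10 mg/kg and 1.09 after SP300 at 200 mg/kg. Over all genes tested the medians lay between -0.12 and 0.06. The counts of members were the same with arrays centred on their medians and with quantile normalization. The split of all called genes was not: the share that was higher moved from 68.6% to 48.3% (quantile) after SP70 at 10 mg/kg, from 47.3% to 36.3% (centred) at 20 mg/kg, from 79.1% to 65.5% (centred) and 56.6% (quantile) after SP300 at 10 mg/kg, and from 41.1% to 53.6% (centred) after SP300 at 200 mg/kg. These 6 comparisons share the same 5 control mice, so they are not independent of each other.

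**Figure D1:**
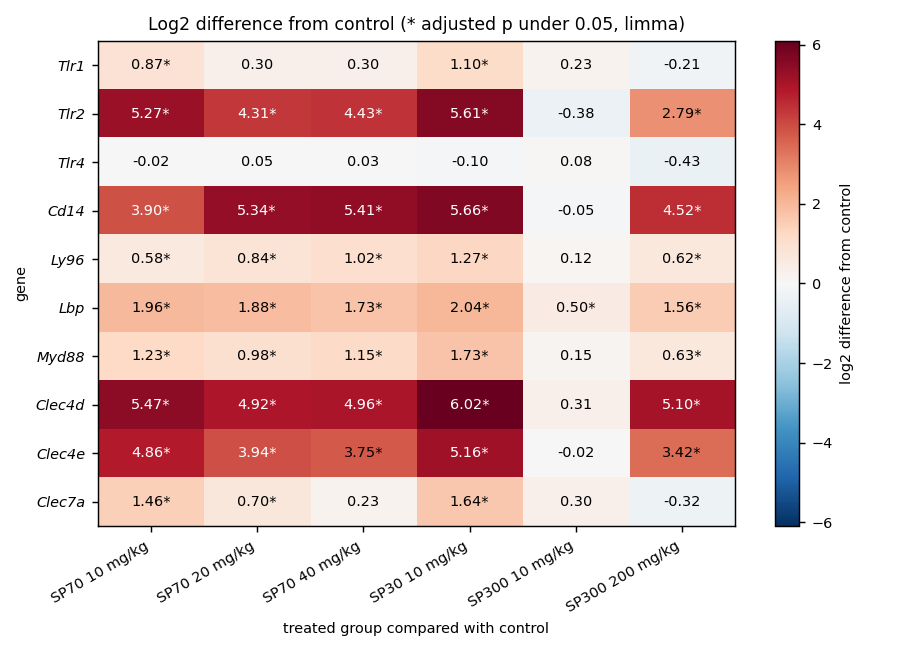
Each cell gives the log2 difference (signal plus pseudocount) of 1 gene between a treated group and control, 5 mice each, with blue for lower and red for higher. An asterisk marks an adjusted p under 0.05. Tlr2, Cd14, Clec4d and Clec4e stand in a deeper red than the other genes in all groups but SP300 10 mg/kg. Of these cells, Tlr2 after SP300 at 200 mg/kg is the palest (2.79). Tlr4 carries no asterisk.

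Clec4d and Clec4e passed the filter on low signals, a signal over 165 on at least 5 arrays, through treated mice alone. Each had 25 arrays above 165, the 25 of the 5 groups other than control and SP300 at 10 mg/kg. Tlr2 had 29 arrays above 165. In control and in SP300 at 10 mg/kg, 2 and 4 of its 5 signals were under that value. On those groups alone Tlr2 would not have passed either. The calls of Clec4d, Clec4e and Tlr2 against control or SP300 at 10 mg/kg thus go with how they passed the filter. They are given as a description. The counts of members called higher include all of these genes. The floor for folds is the same value of 165: signals under it were raised to it, no pseudocount was added, and a fold is a lower bound, written "at least", if any mouse of the group with the lower mean was under the floor. In bulk liver RNA, more cells of a type and more RNA per cell cannot be told apart, and this holds for every result below.

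Lbp, the plasma protein that carries lipopolysaccharide to CD14, rose in all 6 particle groups. The 5 control mice had signals of 6361, 7291, 8558, 8818 and 9503. The mice given SP70 at 10 mg/kg had 24508, 28303, 34326, 35383 and 35555, and those given SP30 had 29202, 29294, 33688, 37013 and 37015. The lowest of these treated mice lay above 2 times the highest control mouse, and the groups did not overlap. The log2 difference from control was 1.96 ± 0.11 (SE) after SP70 at 10 mg/kg, 1.88 at 20 mg/kg and 1.73 at 40 mg/kg, 2.04 after SP30 and 1.56 after SP300 at 200 mg/kg, with the same SE and adjusted p values from 3.2e-17 to 1.63e-13. As folds these were 3.90, 3.69, 3.33, 4.12 and 2.95.

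Lbp was the one member that also passed the test after SP300 at 10 mg/kg. The signals there were 9341, 11482, 11723, 12019 and 12282, and the lowest of them lay within the control range. The log2 difference was 0.50 ± 0.11 (SE; fold 1.41, adjusted p 0.0119), and all 5 mice were above the control mean. Without control replicate 3, the control mouse with the lowest signal, the adjusted p was 0.0556, and in a fit of the 2 groups alone it was 0.0859. A further Lbp probe set with a lower signal rose in the same 6 groups, by 0.77 (adjusted p 0.00729) after SP300 at 10 mg/kg and by 2.51 to 2.82 in the others.

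Cd14, the co-receptor that hands lipopolysaccharide to MD-2 and TLR4, showed one of the widest changes of the 10 genes and differed with both the dose and the size of the particles. Control mice had signals of 252, 375, 386, 421 and 486, and mice given SP300 at 10 mg/kg had 330.1, 336, 362, 388 and 397. The 2 ranges overlapped, with a log2 difference of -0.05 (95% interval from -0.57 to 0.47). After SP70 the signals were 2625, 4629, 6537, 9076 and 9125 at 10 mg/kg.
At 20 mg/kg of SP70 they were 12721, 13445, 14616, 17104 and 22645, and at 40 mg/kg 10320, 13541, 16922, 22381 and 22760. All mice at the higher doses lay above all mice at 10 mg/kg. The SP30 mice, at 16265, 16309, 19230, 23185 and 24903, overlapped with those given SP70 at 20 or 40 mg/kg, and the mice given SP300 at 200 mg/kg, at 6111, 7094, 9093, 9298 and 15140, lay mostly below them and all above control. The folds over control were 15.5, 41.9 and 43.8 after SP70 at 10, 20 and 40 mg/kg, 52.4 after SP30 and 23.7 after SP300 at 200 mg/kg (log2 differences 3.90, 5.34, 5.41, 5.66 and 4.52, each ± 0.26 SE, adjusted p from 3.64e-19 to 2.45e-14).

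Ly96, which encodes MD-2, the part of the TLR4 receptor that holds lipopolysaccharide, rose less. Its signals were 393, 430.1, 480.1, 553 and 624 in control mice and 1095, 1098, 1180, 1196 and 1435 after SP30. All SP30 mice lay above all control mice, at 2.44-fold (log2 difference 1.27 ± 0.14 SE, adjusted p 2.37e-09). After SP70 the signal was 1.51-fold, 1.81-fold and 2.05-fold that of control at 10, 20 and 40 mg/kg, and it was 1.55-fold after SP300 at 200 mg/kg (adjusted p 0.00248, 8.87e-06, 2.43e-07 and 0.000731). After the lowest dose of SP70 and the highest dose of SP300 the lowest treated mouse lay under the highest control mouse. With SP300 at 10 mg/kg the log2 difference was 0.12 (95% interval from -0.16 to 0.40).

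Tlr4, the signalling receptor of this complex, passed the test in none of the 6 comparisons with control and in none of the 10 comparisons between treated groups. At an unadjusted p under 0.05 it differed in 2 of these 16, neither of them against control. Control mice had signals of 186, 228, 238, 248 and 261, mice given SP70 at 40 mg/kg had 148, 222, 253, 257 and 334, and mice given SP30 had 136, 175, 254, 272 and 277. The ranges overlap, and several of the signals lie close to or under 165, so the spread is wide for the level. The 95% intervals of the log2 difference ran from -0.46 to 0.42, from -0.40 to 0.49 and from -0.42 to 0.47 after SP70 at 10, 20 and 40 mg/kg, and from -0.54 to 0.35 after SP30. After SP300 at 200 mg/kg, with signals of 115, 158, 166, 194 and 229.6, the difference was -0.43 (95% interval from -0.87 to 0.02, adjusted p 0.142). Of the other 3 Tlr4 probe sets, 2 were under 165 on every array and 1 passed the filter, with no call against control. The log2 differences of the latter were -1.02, -0.44 and -0.57 after SP70 at 10, 20 and 40 mg/kg, each ± 0.49 (SE). With the same SE they were 0.03 after SP30 and -0.64 and -0.85 after SP300 at 10 and 200 mg/kg.

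**Figure D2:**
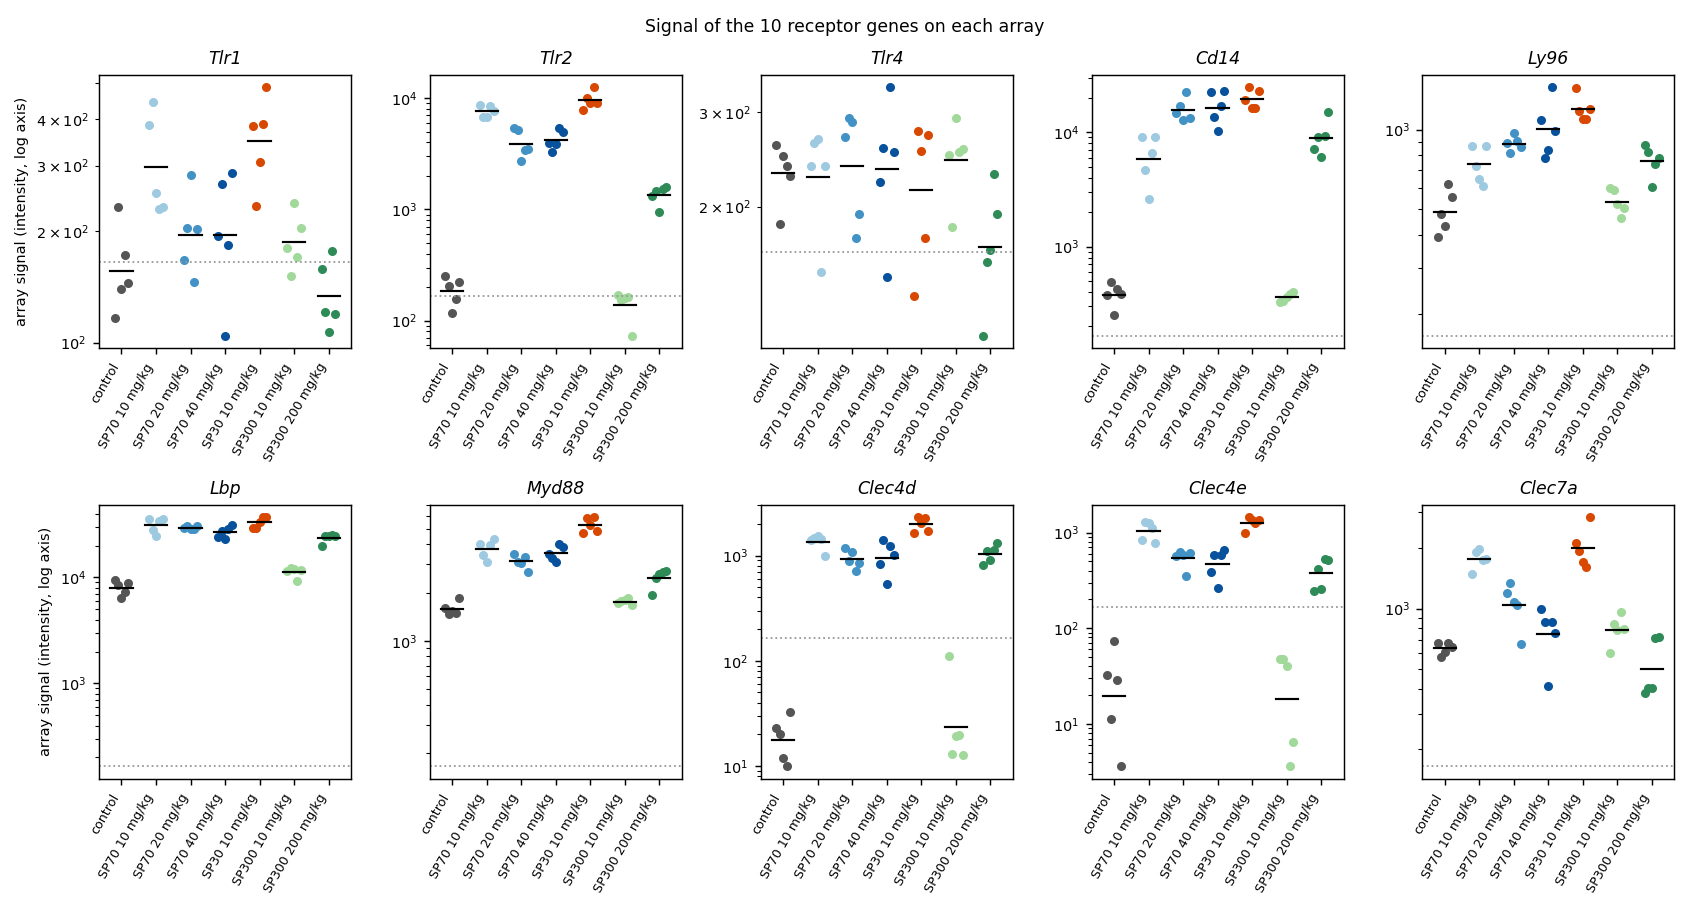
Each panel plots the array signal of 1 gene (linear intensity on a log axis) in the 7 groups, with a point for each of 5 mice, a bar at the geometric mean and a dotted line at 165. In the Clec4d and Clec4e panels, control and SP300 10 mg/kg lie under the dotted line and the other 5 groups above it; in the Tlr4 panel the groups overlap.

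Tlr2, the receptor for bacterial lipopeptides, was close to the floor in control liver and was among the highest rises of the 10 genes. Control mice had signals of 117, 157, 205, 220.3 and 254, and mice given SP300 at 10 mg/kg had 72.8, 155, 161, 164 and 171. After SP70 at 10 mg/kg the signals were 6719, 6758, 7653, 8541 and 8621, and after SP30 they were 7883, 9013, 9073, 10015 and 12615. Those 10 mice lay above all other mice, with no overlap with the other groups.
After SP70 the signals were 2707, 3442, 3514, 5135 and 5421 at 20 mg/kg and 3288, 3878, 3978, 4972 and 5379 at 40 mg/kg. After SP300 at 200 mg/kg they were 942, 1312, 1479, 1514 and 1598, above control and below every other responding group. Against control the signal was at least 38.2-fold, 19.6-fold and 21.3-fold higher after SP70 at 10, 20 and 40 mg/kg, at least 48.2-fold after SP30 and at least 6.76-fold after SP300 at 200 mg/kg (log2 differences 5.27, 4.31, 4.43, 5.61 and 2.79, each ± 0.20 SE, adjusted p from 1.67e-21 to 4.82e-13). With SP300 at 10 mg/kg the log2 difference was -0.38 (95% interval from -0.79 to 0.03, adjusted p 0.404).

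Tlr1, the partner of TLR2 for triacylated lipopeptides, showed smaller differences than Tlr2. Control signals were 117, 139, 144, 172 and 232, with 3 of 5 mice under the floor. The SP70 mice at 10 mg/kg had 229, 232, 252, 387 and 446, and the SP30 mice had 233, 306, 383, 389 and 489. The SP30 mice lay above all control mice, and 2 of the SP70 mice lay at or just under the highest control value. The log2 difference was 0.87 ± 0.24 (SE; at least 1.67-fold, adjusted p 0.0096) after SP70 at 10 mg/kg and 1.10 ± 0.24 (at least 1.96-fold, adjusted p 0.000321) after SP30. It was 0.30 at both 20 and 40 mg/kg of SP70, 0.23 after SP300 at 10 mg/kg and -0.21 after SP300 at 200 mg/kg, none of them past the test.

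Myd88, the adaptor that most Toll-like receptors share, rose in 5 of the 6 particle groups with a narrow spread. Control mice had signals of 1475, 1492, 1531, 1605 and 1838, mice given SP70 at 10 mg/kg had 3102, 3436, 3939, 4010 and 4310, and mice given SP30 had 4722, 4808, 5269, 5836 and 5893. These 3 groups did not overlap, and SP30 stood highest. The folds over control were 2.36, 1.97 and 2.24 after SP70 at 10, 20 and 40 mg/kg, 3.34 after SP30 and 1.55 after SP300 at 200 mg/kg (SE of the log2 difference 0.10, adjusted p from 2.47e-16 to 5.75e-06). After SP300 at 10 mg/kg the log2 difference was 0.15 (95% interval from -0.05 to 0.35), with all 5 mice above the control mean but overlapping the control range.

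Clec4d, which encodes the lectin receptor MCL, went from signals far under the floor in control mice to signals above it in every mouse of 5 groups. Control mice had signals of 9.91, 12.0, 20.1, 22.7 and 32.2. Mice given SP300 at 10 mg/kg had 12.8, 13.1, 19.3, 19.8 and 110.2, so 1 mouse stood apart but also lay under 165. Mice given SP70 at 10 mg/kg had 998, 1414, 1436, 1465 and 1523, and SP30 mice had 1657, 1723, 2045, 2299 and 2312. All 10 exceeded the floor, and the SP30 mice lay above all mice given SP70 at 10 mg/kg.
The signals after SP70 were 716, 851, 888, 1070 and 1169 at 20 mg/kg and 533, 836, 1004, 1236 and 1391 at 40 mg/kg. After SP300 at 200 mg/kg they were 818, 915, 1105, 1136 and 1330, within the range of SP70 at 40 mg/kg. Against control the signal was at least 8.20-fold, 5.61-fold and 5.75-fold higher after SP70 at 10, 20 and 40 mg/kg, at least 12.1-fold after SP30 and at least 6.34-fold after SP300 at 200 mg/kg (adjusted p from 1.21e-18 to 6.83e-16). The fitted log2 differences, 5.47, 4.92, 4.96, 6.02 and 5.10 (each ± 0.28 SE), rest on control signals under the floor and depend on the pseudocount. The only Clec4d probe set is of the type that may also match related transcripts.

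Clec4e, which encodes Mincle, followed the same groups. Control signals were 3.60, 11.2, 29.0, 32.5 and 74.3, and signals after SP300 at 10 mg/kg were 3.59, 6.40, 40.6, 47.2 and 47.4, all under the floor. After SP70 they were 780.1, 842, 1123, 1254 and 1285 at 10 mg/kg, 355, 575, 584, 617 and 635 at 20 mg/kg and 265, 391, 585, 587 and 657 at 40 mg/kg. All mice at 10 mg/kg lay above all mice at either higher dose.
The SP30 mice had 999, 1269, 1346, 1371 and 1449, and the mice given SP300 at 200 mg/kg had 248, 259, 417, 514 and 532. Against control the signal was at least 6.28-fold, 3.28-fold and 2.86-fold higher after SP70 at 10, 20 and 40 mg/kg, at least 7.74-fold after SP30 and at least 2.27-fold after SP300 at 200 mg/kg (adjusted p from 4.7e-14 to 3.29e-09). A further Clec4e probe set was called higher in the same 5 groups, from a control mean of 31.8 under the floor. Its means in these groups lay between 128 and 391, and that of SP300 at 200 mg/kg was also under the floor.

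Clec7a, which encodes the glucan receptor Dectin-1, was above the floor in every control mouse, where Clec4d and Clec4e were under it, and was higher at 10 and 20 mg/kg of SP70 but not called at 40 mg/kg. Control mice had signals of 576, 609, 641, 675 and 677, mice given SP70 at 10 mg/kg had 1485, 1752, 1753, 1900 and 1983, and SP30 mice had 1616, 1707, 1939, 2113 and 2839. Both treated groups lay above all control mice, by 2.78-fold (log2 difference 1.46 ± 0.20 SE, adjusted p 8.24e-07) and 3.15-fold (1.64 ± 0.20, adjusted p 2.03e-08).
At 20 mg/kg of SP70 the signals were 665, 1044, 1081, 1192 and 1339, and at 40 mg/kg they were 411, 760.2, 859, 862 and 995. The first of these groups was 1.63-fold above control (adjusted p 0.00503) with 1 mouse inside the control range. The second was not called, with a log2 difference of 0.23 (95% interval from -0.18 to 0.64), and its lowest mouse lay below all control mice. After SP300 at 200 mg/kg the signals were 380.2, 405, 405, 717 and 726, 3 mice below and 2 above all control mice, and the difference was -0.32 (95% interval from -0.73 to 0.08). For SP300 at 10 mg/kg it was 0.30 (95% interval from -0.11 to 0.70).

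Members differed in opposite directions between the doses of SP70. From 10 to 20 mg/kg, 1 member was higher and 2 were lower, where 4.99% and 12.0% of all genes tested were. From 10 to 40 mg/kg, 2 were higher and 3 lower, against 5.22% and 25.3%. Counts this small in 10 genes lie near those shares, so the differences are given gene by gene. Cd14 rose by 1.44 ± 0.26 on the log2 scale from 10 to 20 mg/kg (2.71-fold, adjusted p 0.000195) and by 1.50 from 10 to 40 mg/kg (2.83-fold, adjusted p 2.78e-05). Ly96 rose by 0.44 ± 0.14 from 10 to 40 mg/kg (1.36-fold, adjusted p 0.0157). Tlr2 fell by 0.96 ± 0.20 from 10 to 20 mg/kg (adjusted p 0.00114) and by 0.85 from 10 to 40 mg/kg (adjusted p 0.00156). Clec7a fell by 0.76 ± 0.20 (adjusted p 0.00732) and by 1.23 (adjusted p 1.46e-05) over the same steps. Clec4e fell by 1.11 ± 0.36 from 10 to 40 mg/kg (2.19-fold lower, adjusted p 0.017). The groups at 10 and 40 mg/kg did not overlap for Cd14, Tlr2, Clec4e and Clec7a, 4 of 10 members against 17.6% of all genes. Between 20 and 40 mg/kg limma called none of the 10 members, at a background of 11.5% (2.79% higher and 8.69% lower), and 1 had an unadjusted p under 0.05. Among the genes called over all genes tested, the share that was higher moved from 29.4% to 20.1% (arrays centred) and 42.8% (quantile normalization) between 10 and 20 mg/kg, from 17.1% to 45.5% (quantile) between 10 and 40 mg/kg, and from 24.3% to 40.8% and 55.8% between 20 and 40 mg/kg. The comparisons of 20 and of 40 with 10 mg/kg share the 10 mg/kg mice.

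The Ly96 call between 10 and 40 mg/kg of SP70 was lost without SP70 10 mg/kg replicate 4 (adjusted p 0.0502) and without SP70 40 mg/kg replicate 4 (adjusted p 0.0842), and in a fit of the 2 groups alone (adjusted p 0.0678). The Clec4e call was lost without SP70 40 mg/kg replicate 3 (adjusted p 0.0681) and with a pseudocount of 1 (adjusted p 0.112). That mouse had the lowest signal of its group for Tlr1, Tlr4, Cd14, Lbp, Myd88, Clec4d, Clec4e and Clec7a. With a pseudocount of 100, or in a fit of the 2 groups alone, 4 members were lower at 20 than at 10 mg/kg: Clec4d and Clec4e joined Tlr2 and Clec7a.

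**Figure D3:**
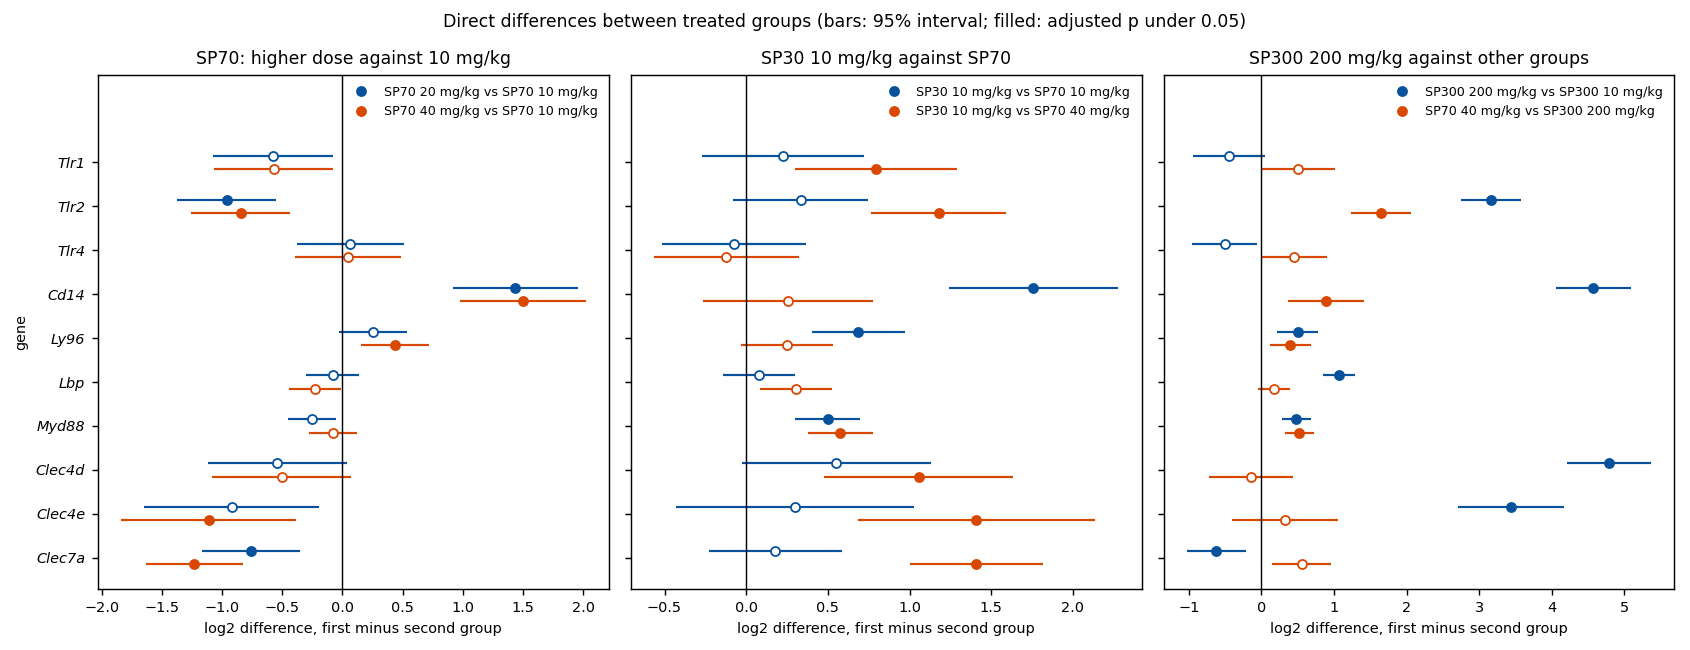
Points give the log2 difference between 2 treated groups for each of the 10 genes, with lines for the 95% interval, filled where the adjusted p was under 0.05. In the left panel Cd14 lies to the right of 0 and Tlr2 and Clec7a to the left at both higher doses of SP70; in the right panel only Clec7a has a filled point to the left of 0.

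At the same dose of 10 mg/kg the members divided SP300 from the smaller particles. SP30 exceeded SP300 for 9 of 10 members (16.3% of all genes were higher and 35.6% lower) and SP70 exceeded SP300 for 8 (10.5% and 10.2%), with none lower in either. Tlr2 was at least 57.8-fold and 45.8-fold higher than after SP300, and Cd14 54.4-fold and 16.0-fold (adjusted p from 2.88e-22 to 1.78e-14). The Ly96 call of SP70 over SP300 (log2 difference 0.46, adjusted p 0.0164) was lost without SP70 10 mg/kg replicate 1 (0.0551) or 5 (0.0561).
Between SP30 and SP70 at 10 mg/kg, 3 members differed, all higher after SP30, where 5.41% of all genes were higher and 23.6% lower. Cd14 was 3.39-fold higher (log2 difference 1.76 ± 0.26 SE, adjusted p 3.26e-06), Ly96 1.62-fold (0.69 ± 0.14, adjusted p 0.000295) and Myd88 1.41-fold (0.50 ± 0.10, adjusted p 0.000209). For these 3 and for Clec4d the SP30 mice lay above every SP70 mouse, 4 of 10 members. Over all genes tested, 16.6% did not overlap between these groups. Clec4d was not called (log2 difference 0.55, 95% interval from -0.03 to 1.13, adjusted p 0.149), but passed with a pseudocount of 100 (0.0251) and in a fit of the 2 groups alone (0.0102). Tlr2 (0.33, 95% interval from -0.08 to 0.75), Clec7a (0.18, from -0.23 to 0.59), Clec4e (0.30, from -0.43 to 1.03) and Lbp (0.08, from -0.14 to 0.30) were not called. Over all called genes the share that was higher moved from 18.6% to 29.2% (centred) and 42.7% (quantile) between SP30 and SP70 at 10 mg/kg, and from 31.4% to 42.0% (quantile) between SP30 and SP300, while the members' counts of 3 and 9 did not move.

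At the doses called toxic, which differ in mass as well as size, SP30 at 10 mg/kg was called above both other particles for some members and below them for none. It exceeded SP70 at 40 mg/kg for 6 members (3.68% of all genes were higher and 2.03% lower) and SP300 at 200 mg/kg for 9 (11.7% and 17.5%), and SP70 at 40 mg/kg exceeded SP300 at 200 mg/kg for 4 (5.04% and 10.4%), with none lower. Over all called genes the share that was higher moved from 64.5% to 81.9% and from 32.6% to 15.8% with arrays centred, in the comparisons of SP70 at 40 mg/kg with SP30 and with SP300, where 7 and 3 members were then higher. Over SP70 at 40 mg/kg, SP30 was 2.27-fold higher for Tlr2 (adjusted p 0.000209), 2.68-fold for Clec7a (1.36e-05), 1.49-fold for Myd88 (0.000191), 2.71-fold for Clec4e (0.0136), 2.10-fold for Clec4d (0.0206) and at least 1.63-fold for Tlr1 (0.0467). Cd14 was not called there (log2 difference 0.26, 95% interval from -0.26 to 0.78). Tlr2 showed the widest step from SP70 at 40 mg/kg to SP300 at 200 mg/kg, at 3.14-fold (log2 difference 1.64 ± 0.20 SE, adjusted p 5.81e-07). Clec4d did not follow it: its difference between those groups was -0.14 (95% interval from -0.72 to 0.44).
Some of these calls rested on single mice or on a setting. The Lbp call of SP30 over SP300 at 200 mg/kg (log2 difference 0.48, adjusted p 0.000895) was lost with the mean of all Lbp probe sets (0.28, adjusted p 0.0753). The Tlr1 call of SP30 over SP70 at 40 mg/kg was lost when any of 7 of the 10 mice was left out (SP70 40 mg/kg replicates 1, 3 and 4 and SP30 replicates 1, 3, 4 and 5), and the Clec4d call when any of 4 was (SP70 replicates 1 and 3, SP30 replicates 2 and 4). The Clec4e call was lost without SP70 40 mg/kg replicate 3 (adjusted p 0.0622), and without that mouse 3 members were higher in place of 6. With a pseudocount of 1, 3 members were higher as well. For SP70 at 40 mg/kg over the 200 mg/kg dose of SP300, the Ly96 call (log2 difference 0.40, adjusted p 0.0488) was lost without any of 7 mice (SP70 replicates 1, 4 and 5 and SP300 replicates 2, 3, 4 and 5), and the Cd14 call (0.89, adjusted p 0.0155) without SP70 replicate 5 (0.0573) or SP300 replicate 3 (0.0519). Without either of these 2 mice, 2 members were higher in place of 4.

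The 2 doses of SP300 differed for 8 members. From 10 to 200 mg/kg, 7 were higher (9.41% of all genes were) and 1 was lower (22.4%). Cd14 rose 24.6-fold, Tlr2 at least 8.10-fold, Clec4d at least 6.34-fold and Clec4e at least 2.27-fold (adjusted p from 6.52e-16 to 3.62e-09), and Lbp, Ly96 and Myd88 rose 2.09-fold, 1.43-fold and 1.40-fold. Clec7a fell by 0.62 ± 0.20 on the log2 scale (1.55-fold lower, adjusted p 0.0154). That call was lost without SP300 200 mg/kg replicate 1 (0.0541) or 2 (0.0515). Tlr4 (-0.51, adjusted p 0.0739) was not called, but was past the threshold without SP300 10 mg/kg replicate 2 (0.0454) or SP300 200 mg/kg replicate 4 (0.0409), and then 2 members were lower. Over all called genes the share that was higher moved from 29.6% to 46.4% (centred) and 49.4% (quantile), while the members' counts of 7 and 1 did not move.

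The rest of the pathway was followed in 8 lists of genes. The lists were chosen with earlier results of these data known, so the shift of a list is a description. After SP30 the median log2 difference from control was -0.07 for other Toll-like receptors, -0.42 for other C-type lectin receptors, 0.35 for adaptors and kinases, 1.94 for brakes on the pathway, 0.23 for lectin receptor signalling, 0.77 for endogenous danger signals, 3.96 for induced cytokines and enzymes and 0.60 for other innate receptors. Over all genes tested it was -0.12, with 18.1% higher and 31.3% lower. These medians kept their sign with arrays centred and with quantile normalization. Among other Toll-like receptors and the RP105/MD-1 pair, 8 of 11 genes were tested, and 0 to 1 were higher and 0 to 2 lower in any comparison with control. Over these comparisons 0.924% to 18.8% of all genes were higher and 0.245% to 31.3% lower. Counts this small in 8 genes do not set the list apart from those shares, so its genes are named as a description. Tlr13, a receptor for bacterial ribosomal RNA, rose by 0.95 ± 0.21 after SP70 at 10 mg/kg (adjusted p 0.000941) and by 0.96 after SP30 (0.000256). Ly86, which encodes MD-1, was at least 3.64-fold lower after SP70 at 40 mg/kg (adjusted p 8.7e-08) and at least 3.57-fold lower after SP300 at 200 mg/kg (1.28e-07). Tlr3, a receptor for double-stranded RNA, fell by 0.72 ± 0.21 (0.00431) and by 0.86 (0.00149) in the same groups.

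Of 18 other C-type lectin receptors 12 were tested, with 3 higher and 6 lower after SP70 at 40 mg/kg (15.6% and 28.8% of all genes) and 3 higher and 5 lower after SP30 (18.1% and 31.3% of all genes). Counts of this size in 12 genes lie near those shares after SP30. The medians were -0.40 and -0.42 against -0.09 and -0.12 over all genes. Clec4n, the Dectin-2 gene, lies next to Clec4d, and Clec4d next to Clec4e, in the RefSeq order of protein-coding genes on chromosome 6. It rose 3.90-fold after SP70 at 10 mg/kg (log2 difference 1.93 ± 0.22 SE, adjusted p 1.92e-08). Olr1, a scavenger receptor whose gene lies next to Clec7a, was at least 1.19-fold higher after SP30 (adjusted p 5.94e-05), with a control mean under the floor. The mannose receptor gene Mrc1 fell 6.79-fold after SP70 at 40 mg/kg (adjusted p 2.44e-11), and Clec1b, the gene of a receptor on platelets and Kupffer cells, was at least 3.84-fold lower (1.64e-08).

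Genes that carry the signal from the Toll-like receptors were called higher in larger numbers than lower. Of 24 adaptors and kinases tested (of 28), 10, 12 and 10 were higher after SP70 at 10, 20 and 40 mg/kg and 14 after SP30, and 0, 1, 4 and 2 were lower. Over all genes tested, 12.5%, 18.8%, 15.6% and 18.1% were higher in these 4 groups and 5.70%, 20.9%, 28.8% and 31.3% lower. With SP300 at 200 mg/kg 9 of the 24 were higher and 1 was lower, against 12.6% and 18.0%. The kinase gene Ikbke rose 22.7-fold after SP70 at 10 mg/kg and 31.7-fold after SP30 (adjusted p 7.21e-20 and 1.83e-21), and Pik3ap1, an adaptor to phosphoinositide 3-kinase, rose 3.95-fold and 5.31-fold. Peli1, a ubiquitin ligase of the pathway, fell by 0.73 ± 0.10 after SP70 at 40 mg/kg (adjusted p 3.47e-07).
Of 16 tested brakes on the pathway (of 19), 9, 10, 11 and 12 were higher in these 4 groups, and 0, 1, 2 and 2 were lower, beside the same shares of all genes. Tnfaip3, which encodes the deubiquitinase A20, rose at least 15.4-fold, 12.3-fold and 36.1-fold after SP70 at 10, 20 and 40 mg/kg and at least 34.0-fold after SP30. Irak3, an inhibitory member of the IRAK kinase family, rose at least 4.09-fold, 5.29-fold, 5.27-fold and 10.7-fold. In the lectin receptor signalling list 13 of 17 were tested; 5, 4, 4 and 6 were higher in these groups and none was lower, while after SP300 at 200 mg/kg 1 was higher and 1 lower. The shares of all genes higher, 12.5% to 18.8%, and lower, 5.70% to 31.3%, stand beside these counts. Among those called after SP30, Bcl10 rose 1.95-fold (adjusted p 1e-08) and the kinase gene Syk 2.15-fold (3.42e-05).

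Of 16 tested endogenous danger signals (of 17), 8, 9 and 9 were higher after SP70 at 10, 20 and 40 mg/kg, 9 after SP30 and 8 after SP300 at 200 mg/kg, and 0, 1, 3, 3 and 1 were lower in these groups. Of all genes tested, 12.5%, 18.8%, 15.6%, 18.1% and 12.6% were higher and 5.70%, 20.9%, 28.8%, 31.3% and 18.0% lower there. S100a8 and S100a9, neutrophil proteins that bind TLR4, rose 44.2-fold and 40.5-fold after SP30 (adjusted p 9.88e-20 and 9.38e-19) and 16.8-fold and 16.4-fold after SP70 at 10 mg/kg. They are also on the neutrophil marker list. The matrix proteoglycan gene Bgn, a TLR2 and TLR4 ligand, fell by 0.60 ± 0.14 after SP70 at 40 mg/kg (adjusted p 0.000547).
The list with the widest shift was that of cytokines and enzymes induced through Toll-like receptors. Of 20 tested (of 25), 16, 16 and 18 were higher after SP70 at 10, 20 and 40 mg/kg, 18 after SP30, 15 after SP300 at 200 mg/kg and 0 after SP300 at 10 mg/kg, with none lower. Of all genes, 12.5% to 18.8% were higher and 5.70% to 31.3% lower in the first 5 of these groups. In the last, 0.924% were higher and 0.245% lower. The chemokine gene Cxcl2 rose at least 161-fold after SP30 and at least 153-fold after SP70 at 40 mg/kg, and Saa3, an acute-phase gene, rose 78.5-fold after SP70 at 20 mg/kg. Of 17 tested other innate receptors (of 25), 8, 6, 6 and 7 were higher after SP70 at 10, 20 and 40 mg/kg and SP30, where 12.5%, 18.8%, 15.6% and 18.1% of all genes were. In the same groups 0, 0, 3 and 0 were lower, against 5.70%, 20.9%, 28.8% and 31.3% of all genes. Fpr2, a receptor for formyl peptides, rose 7.32-fold after SP30 (adjusted p 1.03e-14), and the scavenger receptor gene Msr1 fell by 0.92 ± 0.15 after SP70 at 40 mg/kg (7.21e-06). After SP300 at 10 mg/kg the 8 lists held 1 call, Dusp1, a phosphatase gene of the brakes list, which was lower (log2 difference -1.07 ± 0.28 SE, adjusted p 0.0413). In limma's test there, 1 to 6 genes of each list had an unadjusted p under 0.05.

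**Figure D4:**
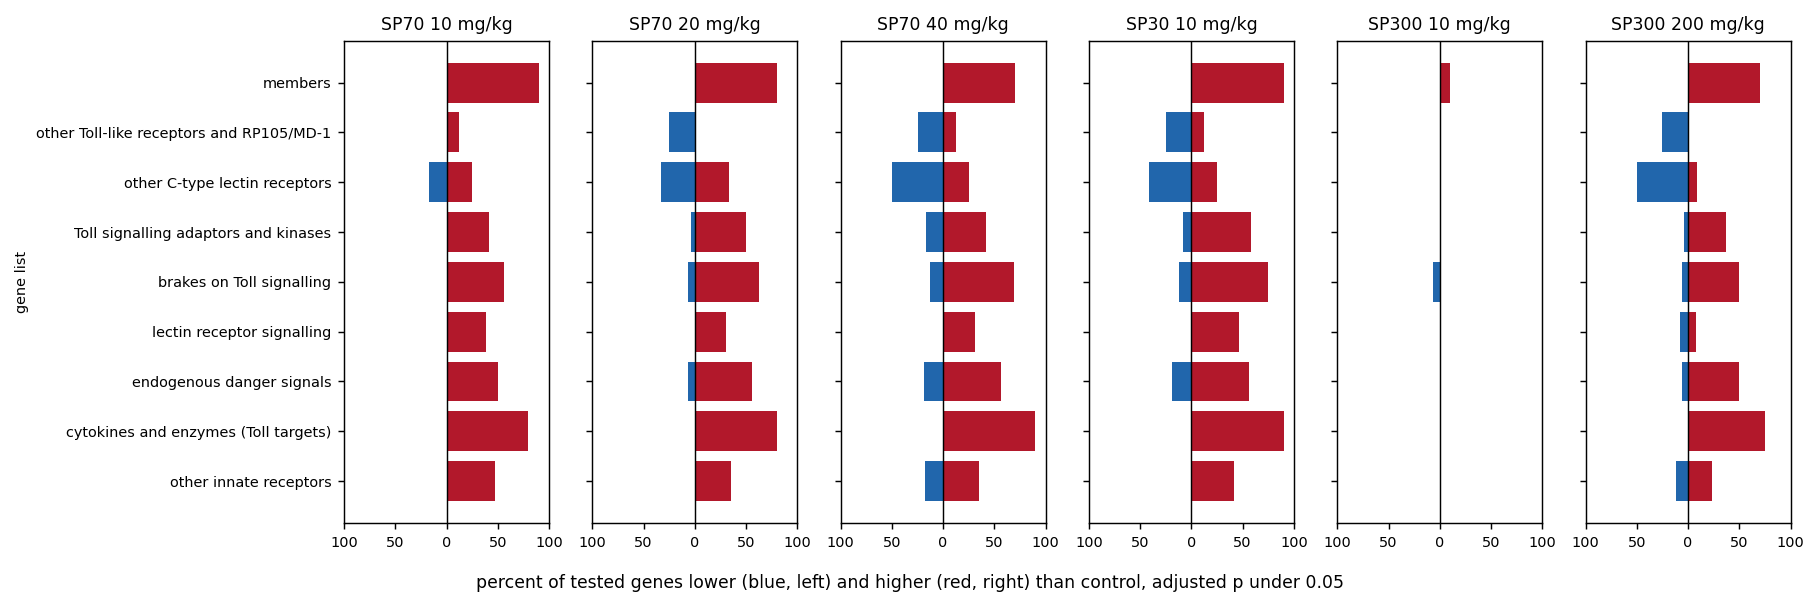
Bars give the percent of each list's tested genes that were higher (red, to the right) or lower (blue, to the left) than control at an adjusted p under 0.05, 1 panel for each treated group. The 10 receptor genes are the top bar (90% higher after SP70 at 10 mg/kg); other C-type lectin receptors have blue bars longer than the red ones at SP70 40 mg/kg, SP30 10 mg/kg and SP300 200 mg/kg.

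Markers of liver cell types, among them the cells that carry these receptors, also differed between the groups. The summed signal of 14 Kupffer cell markers was 30480 to 44110 in control mice and 34620 to 49370 after SP300 at 10 mg/kg. It was 12710 to 21350, 4323 to 6895 and 2965 to 4482 after SP70 at 10, 20 and 40 mg/kg, 10120 to 22110 after SP30 and 2969 to 3642 after SP300 at 200 mg/kg. After SP70 at 40 mg/kg 12 of 14 were lower and none higher (28.8% and 15.6% of all genes), and 9 of the 14, among them Clec4f, Timd4 and Cd5l, had group medians under 165. The summed signal of 14 neutrophil markers was 23120 to 34980 in control mice and reached 66980 to 84340 after SP70 at 10 mg/kg and 115400 to 130700 after SP30, where 11 of 14 were higher (18.1% of all genes). Not all of the 14 rose: the group median of Mpo was above 165 in control mice and under it in every treated group. The summed signal of 10 monocyte markers was 39630 to 41890 in control mice and 56620 to 61480 after SP30. There 9 of 10 were higher (18.1% of all genes) and Cx3cr1 was lower. After SP300 at 10 mg/kg the neutrophil sum was 34100 to 42950 and the monocyte sum 39720 to 51490. Both ranges overlapped control but reached above it.
Endothelial markers, 13 of them, summed to 26450 to 37670 in control mice. Their sum was 20860 to 31460, 22010 to 26280 and 6243 to 15010 after SP70 at 10, 20 and 40 mg/kg. It was 9258 to 16370 after SP30, 11400 to 25910 after SP300 at 200 mg/kg and 37110 to 43900 after SP300 at 10 mg/kg. Hepatocyte markers, 14 of them, summed to between 805100 and 1109000 over all 7 groups, none with a group median under 165, so markers of the labelled tissue were present in every group. Of 9 T and NK cell markers 7 to 9, and of 6 B cell markers 4 to 6, had group medians under 165. The 11 stellate and fibroblast markers summed to 24630 to 53320. The part of these cell types in the changes of the 10 genes was not tested.

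The genes most like each member over the 35 arrays were named by their correlation of log2 signals. These correlations mostly follow the differences between the 7 groups, whose mice share a treatment, and are given as a description. For Tlr2 they were Nfkbib (r 0.975), Tnip1 and Nfkbie, all inhibitors in the NF-kB pathway. For Myd88 they were Nfkbie (0.975), the NF-kB subunit gene Rela (0.970) and the transcription factor gene Ets2 (0.967). For Cd14 they were Litaf (0.987), Gbp2 and Gbp2b, and for Lbp they were Pik3ap1 (0.976), Plscr1 and the acute-phase gene Crp.
For Clec4d the closest were the chemokine gene Ccl3 (0.985), Ikbke and Crp, and for Clec4e they were Acod1 (0.964), which encodes the enzyme that makes itaconate, Calhm6 and Ccl3. For Clec7a they were Rtp4 (0.909), the leukocyte gene Ptprc and Tanc1, and for Ly96 Eif2ak3 (0.920), Srxn1 and Bid. Tlr1 was closest to another member, Clec7a (0.772), then Ms4a6d and Slc15a3. The best matches of Tlr4, Dab2 (0.633), Epb41l2 and Gapvd1, were the weakest of the 10. Among the members themselves, Clec4d and Clec4e correlated at 0.949, Tlr2 and Clec4e at 0.947 and Lbp and Clec4d at 0.950, while Tlr2 and Tlr1 correlated at 0.512 and Tlr2 and Tlr4 at -0.046.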

How the data were processed

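Liver RNA of 35 mice was hybridised to 35 arrays, 1 a mouse. The intensity values deposited by the authors are linear signals of 45101 probe sets made with MAS5, per the submitters' processing notes. Its version and scaling are not given in the sources used here. Of the probe sets, 34945 map to 1 gene symbol, 932 to several, 9160 to none, and 64 are controls. A gene was represented by its single-gene probe set with the highest mean signal. Before taking log2, 12.5 (10th percentile over all arrays) was added as a pseudocount, and genes over 165 (the median) on at least 5 arrays were tested, which left 12669.

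All 7 groups were fitted together in limma (version 3.58.1, R 4.3.3), letting the prior variance follow the mean. The tests are two-sided, with Benjamini-Hochberg adjustment within each of 16 comparisons, and the script was tested on simulated data. The p-values set a difference between groups against the spread between mice within groups, which was pooled over all 7 groups and moderated across genes. The members, the gene lists and the floor of 165 were chosen with earlier results of these data known. All 10 members are named, from each other list up to 2 of the highest and 2 of the lowest differences past the test in a comparison with control, and for each member the 3 genes most correlated with it. Alternatives were pseudocounts of 1 and 100, no filter and a filter at 759, centred arrays, quantile normalization, the mean of a gene's probe sets, the replicate number as a block, a fit of the compared groups alone, and each mouse left out. Promoter windows and the gene order come from RefSeq tables (GRCm38.p6).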

Additional observations from a re-analysis of the deposited data

Results flagged for a closer look

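In 8 of 70 sets of 5 mice (10 genes in 7 groups), 1 mouse lay apart from the other 4 by Dixon's 95% criterion, which chance meets in about 1 of 20 sets. In mice given SP300 at 10 mg/kg these were Tlr2 in replicate 5 (signal 72.8, next lowest 155), Lbp in replicate 4 (9341, next 11480) and Clec4d in replicate 1, the only one on the high side (110.2, next highest 19.8). In mice given SP300 at 200 mg/kg they were Lbp (19760, next 24420) and Myd88 (1917, next 2465), both in replicate 1. In mice given SP70 at 10 mg/kg they were Tlr4 in replicate 4 (150.9, next 238) and Clec4d in replicate 5 (998, next 1414), and at 20 mg/kg Clec4e in replicate 4 (355, next 575).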

How the results depend on the processing

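Of 41 calls of members against control, 40 held under every alternative and with any mouse left out, and the other was Lbp after SP300 at 10 mg/kg. Of 55 calls between treated groups 45 held throughout, while 7 were lost under some setting and 9 without some mouse, most of these under both. No called difference changed direction, while 14 uncalled differences between treated groups passed the test under some alternative. Where counts moved, the cause was not tested.

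After SP300 at 10 mg/kg against control, 148 genes were called, 87 with arrays centred and 45 in a fit of the compared groups alone, where 0 members were higher. Without single mice it was 72 to 164 genes and 0 to 1 members. For SP30 against SP70 at 40 mg/kg, 723 genes were called, 419 in a fit of the groups alone and 426 to 847 without single mice; 6 members were higher, 3 with a pseudocount of 1 and 3 to 7 without single mice. For SP70 at 40 against 20 mg/kg, 1455 genes were called, 853 with arrays centred and 913 to 1680 without single mice; 1 member was higher with quantile normalization (Myd88, 0.31), and 0 to 1 were lower without single mice. For 20 against 10 mg/kg, 4 members were lower with a pseudocount of 100 or in a fit of the groups alone, in place of 2, and 2 to 3 without single mice. For 40 against 10 mg/kg, 1 member was higher in a fit of the groups alone. Without single mice, 1 to 2 were higher and 2 to 4 lower there. For SP70 at 40 mg/kg against SP300 at 200 mg/kg, 1960 genes were called, 3021 with arrays centred; 2 to 6 members were higher without single mice. Between the doses of SP300, 0 to 2 members were lower without single mice.

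Tlr4 had more uncalled differences that changed sign than any other member. With quantile normalization Tlr4 was -0.04 after SP70 at 20 mg/kg, 0.04 for 40 against 20 mg/kg and 0.02 for SP30 against SP70 at 10 mg/kg, Lbp was 0.02 for 20 against 10 mg/kg and Myd88 0.11 for 40 against 10 mg/kg. With arrays centred Tlr4 was -0.04 and -0.02 after SP70 at 20 and 40 mg/kg and 0.02 between them. With the mean of all probe sets Tlr4 was -0.20, -0.27 and -0.28 after SP70 at 20 and 40 mg/kg and SP300 at 10 mg/kg, and 0.49, 0.24 and 0.25 for SP30 against SP70 at 10 mg/kg, against SP70 at 40 mg/kg and against SP300 at 10 mg/kg, and Lbp was -0.06 for SP30 against SP70 at 10 mg/kg. Without single mice Tlr4 ran from -0.18 to 0.06 after SP30, from -0.09 to 0.12, -0.03 to 0.15 and -0.09 to 0.18 after SP70 at 10, 20 and 40 mg/kg, from -0.07 to 0.17 (20 against 10 mg/kg), -0.09 to 0.20 (40 against 10 mg/kg) and -0.14 to 0.14 (40 against 20 mg/kg). For SP30 it ran from -0.21 to 0.08 against SP70 at 10 mg/kg and from -0.28 to 0.03 against SP70 at 40 mg/kg, and for SP70 against SP300 at 10 mg/kg from -0.20 to 0.04. After SP300 at 10 mg/kg Cd14 ran from -0.19 to 0.04, Clec4d from -0.11 to 0.46 and Clec4e from -0.31 to 0.30. For 40 against 20 mg/kg of SP70 the ranges were -0.05 to 0.23 for Cd14, -0.10 to 0.24 for Clec4d, -0.34 to 0.01 for Clec4e, -0.12 to 0.22 for Tlr1 and -0.02 to 0.23 for Tlr2. Lbp ran from -0.01 to 0.13 for SP30 against SP70 at 10 mg/kg, and Clec4d from -0.27 to 0.07 for SP70 at 40 mg/kg against SP300 at 200 mg/kg.

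Same-numbered mice of different groups did not deviate together (mean r -0.000553, from -0.103 to 0.112 over 105 pairs, against 0.000135 for other pairs), so the numbers were not taken as pairs. The replicate block changed 1 call of a member, Tlr1 for SP30 against SP70 at 40 mg/kg (0.80, adjusted p 0.0613 in limma). Tlr1 and Tlr4 did not pass the filter at 759 and have no value there. Signals under 165, as for Clec4d and Clec4e in control mice, limit their folds to lower bounds.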
